A study of Mus musculus with 3 samples.

Results

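The genes described here are 10 genes of phospholipid synthesis, chosen by name from the 22367 protein-coding genes of GENCODE release M1 on mouse NCBI37/mm9. They are Chka, Etnk1, Pcyt1a, Pcyt2, Pemt, Ptdss1, Ptdss2, Cds2, Ppap2b and Ppap2c. For each gene, binding of the nuclear receptors RXRα and RARα was read within 10 kb either side of the 5′ end of the gene, called the gene start, and over the gene body from start to end. The study used chromatin immunoprecipitation followed by sequencing (ChIP-seq) to ask where these receptors bind in mouse liver and where they bind together. There were 3 libraries, 1 per group, each from the liver of wild type male C57BL/6 mice labelled as 3 months old: chromatin pulled down for RXRα, input chromatin as the background, and chromatin pulled down with an anti-RARα antibody from Santa Cruz (sc-551x). No treatment or deleted allele was named for any library. Whole liver holds hepatocytes and other cells, so the signal cannot be assigned to a cell type. Without replicates no test between libraries was possible, and all differences below describe these 3 libraries only.

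Phosphatidylcholine and phosphatidylethanolamine, the most abundant membrane phospholipids, are made from choline and ethanolamine in the Kennedy pathway, where a kinase adds a phosphate, a CTP-dependent transferase activates the product and a transferase joins it to diacylglycerol. The liver can also methylate phosphatidylethanolamine to phosphatidylcholine, which it needs for bile and for the export of lipoproteins. Phosphatidylserine is made by base exchange from these lipids, while phosphatidylinositol and cardiolipin come from phosphatidic acid by way of CDP-diacylglycerol. RXRα pairs with other nuclear receptors, RARα among them, and such pairs recognise direct repeats of a 6-base sequence.

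RXRα and input were deposited as read coverage in 32 bp bins, and the tracks corresponded to 9999939 and 9999292 reads. These totals are nearly equal, and that of RXRα is below the uniquely mapped reads that the study reports for it. The tracks may therefore have been brought to a common depth by the authors, and the read counts below are those of the tracks. RARα was deposited as a list of 143280 peaks with a score from 5 to 382, of which 32946 had a score over 20 and were used. The formula of the score is not given in the sources used here. The study reports more uniquely mapped reads for RARα than for RXRα. An RXRα region was a run of bins with at least 20 times the input, where the input was never taken as less than its genome mean of 0.603 per bin, and 42117 such regions were found. RXRα enrichment over a window is the RXRα reads divided by the input reads after scaling to the same total, with a 95% exact binomial interval. These intervals cover counting error only, and not the variation between animals or libraries. They treat reads as independent, which reads without molecular identifiers need not be, so they may be too narrow. Mitochondrial reads made up 0.261% of the RXRα track and 3.64% of the input track, and leaving them out of the scaling lowered the median enrichment of the 10 genes from 2.60 to 2.51.

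Each receptor lay in the neighbourhood of 9 of the 10 genes, though not of the same 9. With the thresholds taken from the study, the share with both on the same spot was near that of all genes, and it was higher at lower thresholds. A RARα peak lay within 10 kb of the start of 9 genes (52.2% of all genes had one), the exception being Ppap2c. An RXRα region lay within 10 kb of 9 genes (39.8% of all genes), the exception being Ptdss1. A co-localized pair, meaning a RARα peak and an RXRα region that overlapped by at least 25% of the narrower one, was found within 10 kb of 3 genes, namely Pemt, Pcyt1a and Pcyt2 (23.5% of all genes, and 27.8% of genes in the same range of length). The count was 7 with bins of at least 15 times the input (30.2% of all genes) and also 7 without a score threshold (31.2%). Over the gene bodies, 8 genes had a RARα peak (42.5% of all genes) and all 10 had an RXRα region (33.9%), but Pemt and Ppap2b were the 2 genes with a co-localized pair there (17.7%). The 10 genes are 7.36 to 75.9 kb long, and among the 11720 genes in that range of length 50.5% had a RARα peak, 39.6% an RXRα region and 20.9% a co-localized pair in the body. Several of the 10 genes had been named by the study as bound, so these counts are not independent evidence.

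The total RXRα signal was above background at most of these genes. Over 10 kb either side of the start the median enrichment of the 10 genes was 2.60, against 1.09 for all genes and 1.23 for genes in the same range of length, and 9 of the 10 were above the median of all genes. Within 1 kb of the start the median was 3.97 against 1.79, and over the gene body 2.44 against 1.0, with all 10 genes above the median of all genes in both windows. Ptdss1 was the gene with less RXRα than input over 10 kb, at 0.671, and Ppap2c was the highest at 3.97.

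**Figure D1:**
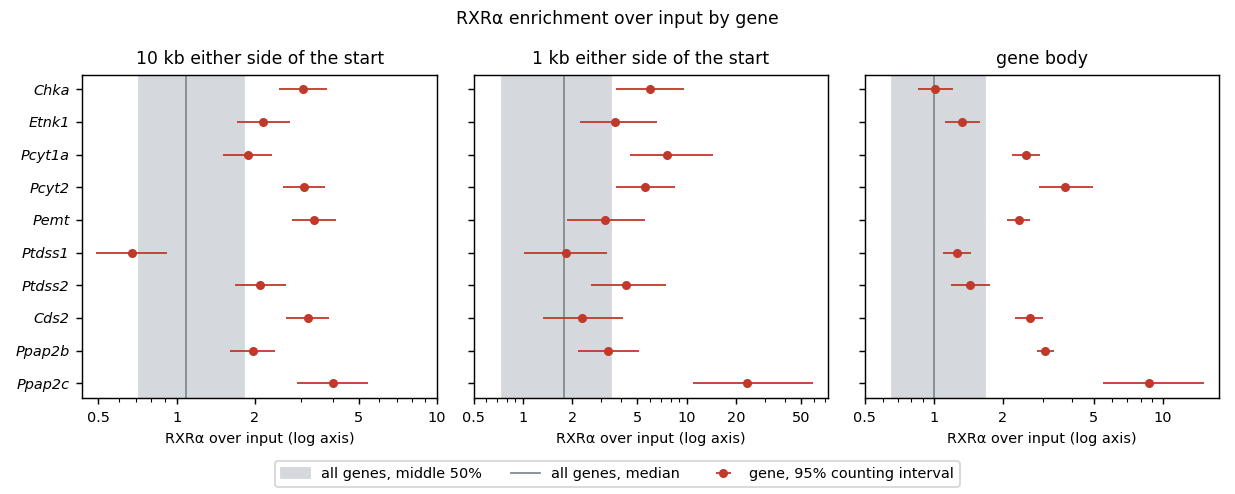
RXRα enrichment over input (log axis) of each gene in 3 windows, with points for the gene, bars for the 95% counting interval, and the median and middle 50% of all 22367 genes as a line and a grey band. Ppap2c stands highest in each window, with 23.3 within 1 kb of its start, and Ptdss1 lies below the band within 10 kb at 0.671.

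Chka, choline kinase alpha, makes phosphocholine and so opens the choline branch of the Kennedy pathway (chr19:3851773-3894369, + strand). The RARα peak at its start was one of the strongest of the set, with its summit 47 bp into the gene in an untranslated exon and a score of 104. RXRα sat beside it: the region next to it, 765 bp upstream of the start, reached a coverage of 56 against 3 in input, and another 5837 bp upstream reached 49 against 1. These 2 regions and 2 smaller ones made 4 RXRα regions within 10 kb. Under the RARα peak itself the highest RXRα bin was 13.3 times the input, below the 20 times that defines a region. A separate RARα peak with a score of 19, just under the threshold, did overlap the upstream RXRα region, and merging it with the stronger peak would count Chka as co-localized. The enrichment was 3.05 (2.47 to 3.78) over 10 kb but 1.01 (0.853 to 1.21) over the gene body, so the RXRα reads of Chka lay around its start and upstream of it. Gm16066, an annotated gene on the opposite strand, starts 646 bp inside Chka.

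Etnk1, ethanolamine kinase 1, performs the same step for ethanolamine (chr6:143115750-143157062, + strand). Its RARα peak was centred 5 bp from the start with a score of 63, and RXRα under that peak reached no more than 7.0 times the input. RXRα coverage was highest inside an intron, at 56 against 3 in input 2091 bp from the start. Of the 2 RXRα regions, the nearer lay on the flank of this maximum, at 2154 bp with 48 against 2. The other was separate from it, at 3290 bp with 29 against 0. No RARα peak of any score overlapped these regions. The 10 kb enrichment of Etnk1 was 2.14 (1.70 to 2.72), which was higher than in 81.3% of all genes.

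Pcyt1a encodes the CTP:phosphocholine cytidylyl transferase, the rate-limiting enzyme of phosphatidylcholine synthesis (chr16:32431007-32475156, + strand). It was the gene of the set in which a strong RARα peak coincided with RXRα at the start. The RARα peak had a score of 62 with its summit 52 bp upstream, and it spanned 2 RXRα regions, of 25 against 1 and 41 against 2 in coverage. Over this peak RXRα had 109 reads and input 12, an enrichment of 9.12. Further RXRα regions followed in the introns, and the strongest, near 22305 bp from the start, reached 87 against 4. A RARα peak with a score of 65, the highest of the gene, lay in an intron at 27298 bp, where the highest RXRα bin was 18.0 times the input and the next RXRα region was 201 bp away. Within 1 kb of the start the enrichment was 7.61 (4.54 to 14.4), higher than in 95% of all genes.

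Pcyt2 encodes the corresponding enzyme for phosphoethanolamine (chr11:120471401-120479250, - strand). With 7 RARα peaks within 10 kb it had more than 98.8% of all genes, and the peak at 65 bp from its start had the highest RARα score of the set, 128. Under that peak RXRα was 3.54 times the input, and the other peaks had scores of 22 to 53. The strongest RXRα signal lay a little farther in, at 801 bp, with a coverage of 89 against 6 in input. Since the input was raised there as well, the highest ratio of a bin in the RARα peak over it (score 47) was 17.2, so it was not counted as an RXRα region. The RXRα region of the co-localized pair counted for Pcyt2 had a coverage of 16 against 0 in input. That pair, with a RARα score of 22 at 6555 bp upstream, was nearer to the start of Sirt7, which lies 7304 bp upstream of Pcyt2. Npb starts at 9459 bp on the other side, and with peaks assigned to their nearest gene Pcyt2 had 3 RARα peaks and no co-localized pair.

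Pemt encodes the phosphatidylethanolamine N-methyltransferase, the liver enzyme that makes phosphatidylcholine by methylation (chr11:59784116-59859991, - strand). It had 2 co-localized pairs within 10 kb, more than any other gene of the set. At the annotated start the co-localized RARα peak had a score of 33, and RXRα had 40 reads against 7 of input. The RXRα region there had a coverage of 17 against 0, so its ratio rested on the genome mean of the input. An abutting RARα peak with a score of 36, 291 bp inside the gene, was not co-localized. The larger signal lay 9446 bp inside the gene, where RXRα coverage reached 210 against 7, the highest coverage of any RXRα region in the 10 genes. The RARα peak on it had a score of 25, with 282 RXRα reads against 14 input reads. GENCODE places 3 transcript starts of Pemt there, at 9484, 9583 and 9625 bp from the gene start, and the enrichment within 1 kb of these was 11.3 to 11.8, against 3.16 at the gene start. The largest RXRα signal of Pemt thus coincided with internal transcript starts. The enrichment over the whole body, 75.9 kb, was 2.35 (2.10 to 2.64).

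The sequence under this summit is shown, together with those of Ppap2b, Ppap2c, Ptdss1 and Cds2, because Pemt, Ppap2b, Cds2 and Ppap2c hold the highest coverage of an RXRα region among the 10 genes and the Ptdss1 window holds the RXRα region of that gene. Each is 151 bp of the NCBI37/mm9 genome centred on the highest RXRα coverage and written 5′ to 3′ in the sense of the gene. Capitals mark the hexamers that make up nuclear receptor repeats, on either strand. The hexamer searched in the first place was AGGTCA. Its relative AGTTCA was counted as well, likewise the relative spelled GGGTCA, and the last one counted was GGTTCA.

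Pemt, chr11:59850470-59850620, - strand: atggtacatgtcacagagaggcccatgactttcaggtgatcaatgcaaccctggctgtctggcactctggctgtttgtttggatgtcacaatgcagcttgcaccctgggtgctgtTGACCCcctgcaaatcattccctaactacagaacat

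Ppap2b, chr4:104888454-104888604, + strand: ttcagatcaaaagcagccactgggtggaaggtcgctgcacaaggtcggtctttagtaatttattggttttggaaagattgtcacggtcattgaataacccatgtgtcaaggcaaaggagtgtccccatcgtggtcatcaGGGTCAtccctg

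Ppap2c, chr10:78996006-78996156, - strand: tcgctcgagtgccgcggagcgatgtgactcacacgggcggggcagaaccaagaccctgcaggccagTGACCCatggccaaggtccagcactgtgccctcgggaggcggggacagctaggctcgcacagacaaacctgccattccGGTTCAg

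Ptdss1, chr13:67064486-67064636, + strand: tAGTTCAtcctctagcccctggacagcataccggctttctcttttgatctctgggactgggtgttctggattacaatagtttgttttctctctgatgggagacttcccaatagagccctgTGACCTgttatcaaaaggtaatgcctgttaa

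Cds2, chr2:132096294-132096444, + strand: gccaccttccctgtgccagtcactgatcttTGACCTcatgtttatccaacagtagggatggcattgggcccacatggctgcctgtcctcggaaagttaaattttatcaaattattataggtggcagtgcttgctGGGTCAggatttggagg

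Ptdss1, phosphatidylserine synthase 1, exchanges the choline of phosphatidylcholine for serine (chr13:67033766-67099337, + strand). It was the gene of the set with RARα but no RXRα region near its start. Its 3 RARα peaks, with scores of 21, 64 and 28, abutted each other around the start, and the highest RXRα bin in them was 18.3 times the input, at a coverage of 11 against 0. Over 10 kb the RXRα library had 70 reads and the input 104, an enrichment of 0.671 (0.490 to 0.920), higher than in 20.9% of all genes. The RXRα region of Ptdss1 stood alone in an intron 30795 bp from the start, where coverage reached 85 against 0 in input, and the RARα peak over it had a score of 13, under the threshold. Mterfd1 starts 258 bp away on the opposite strand, so the RARα peaks lie at the starts of both genes. One more RARα peak, with a score of 23, lay 58939 bp inside the gene, where RXRα was 0.08 times the input.

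Ptdss2 uses phosphatidylethanolamine for the same exchange (chr7:148308281-148342920, + strand). It carried the weakest RARα peaks of the 9 genes by highest score, 26 and 31, which abutted each other in an intron 729 and 984 bp from the start. RXRα was raised at the first of them, with 50 reads against 5 of input and a highest coverage of 35 against 3, but no bin there exceeded 16.0 times the input. Its 3 RXRα regions within 10 kb were small, with a coverage of 13 to 15 against 0 in input, so that their ratios rested on the genome mean of the input. The 10 kb enrichment was 2.09 (1.67 to 2.63). Ano9 starts 4576 bp upstream on the opposite strand.

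Cds2, CDP-diacylglycerol synthase 2, turns phosphatidic acid into the precursor of phosphatidylinositol and cardiolipin (chr2:132088884-132137786, + strand). RARα peaks with a score over 20 and RXRα regions took different places along this gene. The RARα peak at the start had a score of 89 with its summit 119 bp upstream, and RXRα there reached 19.0 times the input, just under the threshold. A RARα peak of score 88 lay 9959 bp upstream and was nearest to Pcna, which starts 9834 bp upstream on the opposite strand. RXRα was strongest in the introns, at 106 against 3 in coverage 7485 bp from the start and at 78 against 1 at 19148 bp, and no RARα peak with a score over 20 fell within the gene body. Weak RARα peaks with scores of 15 and 16 overlapped 2 of the 4 intronic RXRα regions. The enrichment of Cds2 was 3.18 (2.63 to 3.86) over 10 kb and 2.62 (2.27 to 3.01) over the body.

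Ppap2b and Ppap2c encode lipid phosphate phosphatases, which remove the phosphate of phosphatidic acid to leave diacylglycerol. Ppap2b (chr4:104829952-104905369, + strand) held the most RXRα regions, 13 over its body, and 7 RARα peaks. Its highest RARα scores were at and upstream of the start, and the peaks from 1043 bp inward had scores of 21 to 41. The peak 33 bp from the start had a score of 118 and the one 5217 bp upstream a score of 103, and neither overlapped an RXRα region. Inside the gene, 4 RARα peaks with scores of 21, 31, 25 and 29 were co-localized, at 13338, 58703, 63773 and 66023 bp from the start, all intronic. The peak at 58703 bp covered the highest RXRα ratio in this gene, 154 times the input, with 351 RXRα reads against 15 input reads. RXRα enrichment was 3.07 (2.82 to 3.35) over the body and 1.96 (1.60 to 2.39) over 10 kb. The co-localized pairs of Ppap2b thus all lay more than 10 kb from its start.

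Ppap2c (chr10:78989175-78996532, - strand) showed the reverse of Ptdss1, with RXRα and no RARα peak over the threshold. Its single RXRα region lay in an intron 420 bp from the start with a coverage of 105 against 0, the highest ratio of the set at 174 times the genome mean of the input. Within 1 kb of the start there were 163 RXRα reads and 7 input reads, an enrichment of 23.3 (11 to 58.8) that was higher than in 99.9% of all genes. Because the input rested on 7 reads, the interval was wide. The 4 RARα peaks within 10 kb had scores of at most 13, and 2 of them overlapped the RXRα region. Mier2 starts 8173 bp upstream on the same strand.

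**Figure D2:**
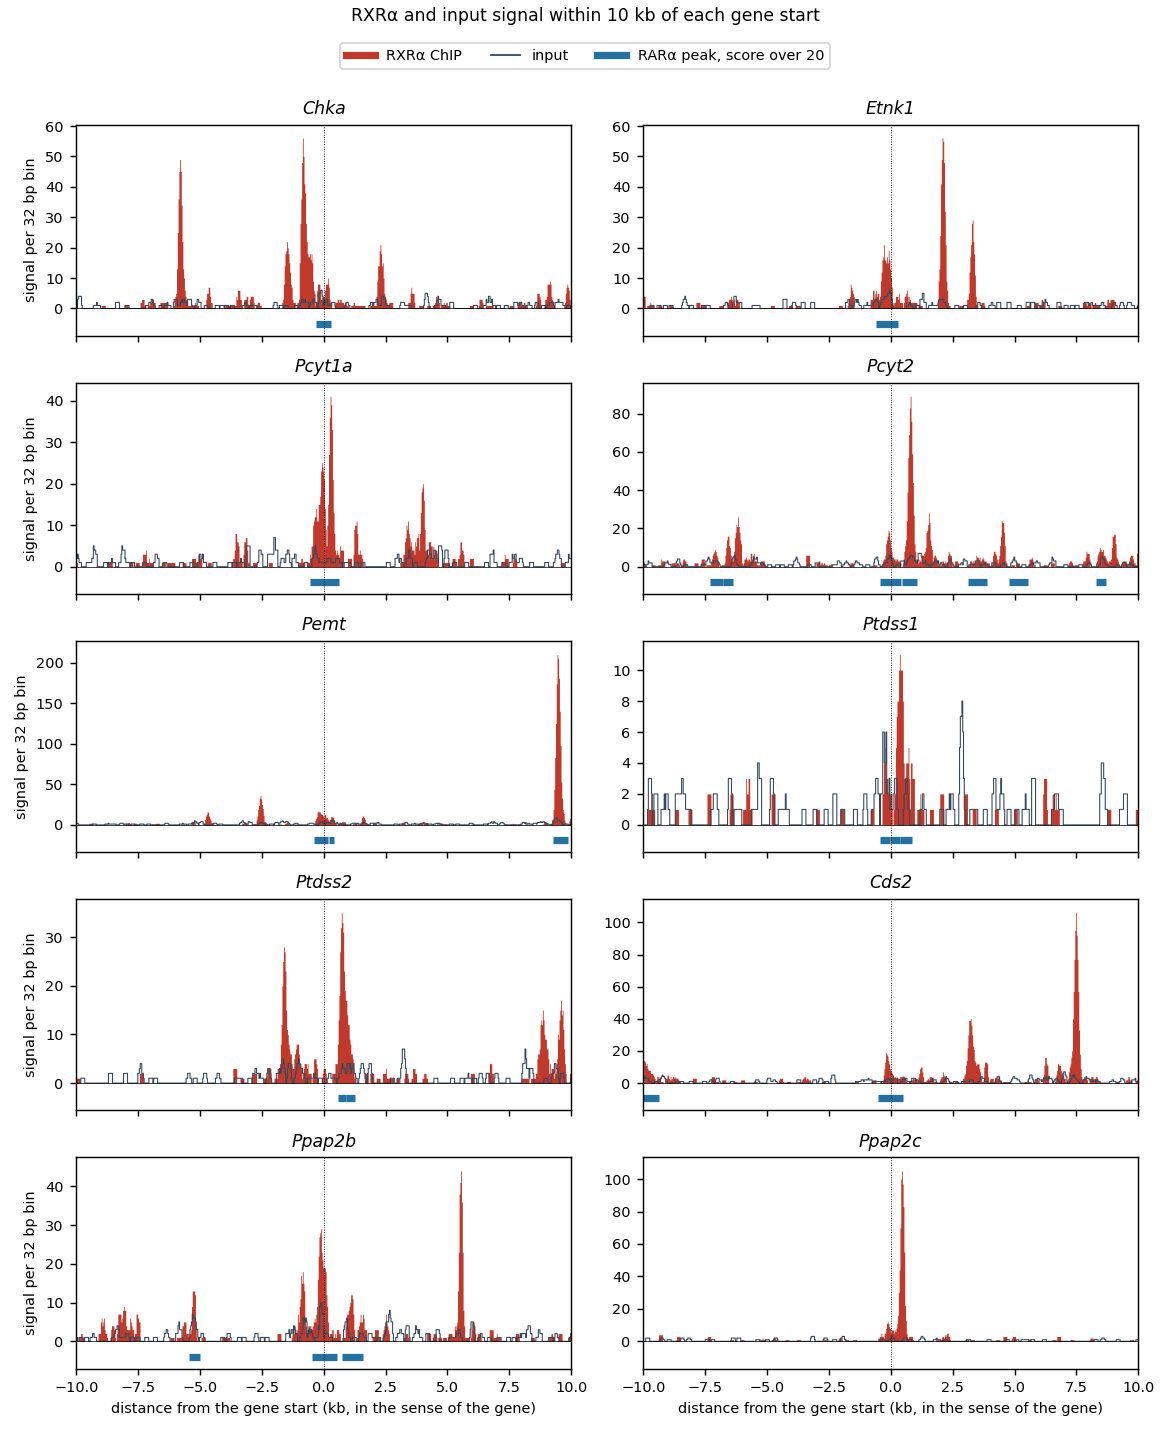
RXRα (red) and input (dark line) signal per 32 bp bin against the distance from the start of each gene in kb, with RARα peaks of score over 20 as blue bars and a separate vertical scale for each gene. All genes but Ppap2c have a RARα bar within 1 kb of the start, while the tallest RXRα signal lies farther away in Pemt (210 at 9446 bp), Cds2 (106 at 7485 bp), Ppap2b (44 at 5553 bp) and Etnk1 (56 at 2091 bp).

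**Figure D3:**
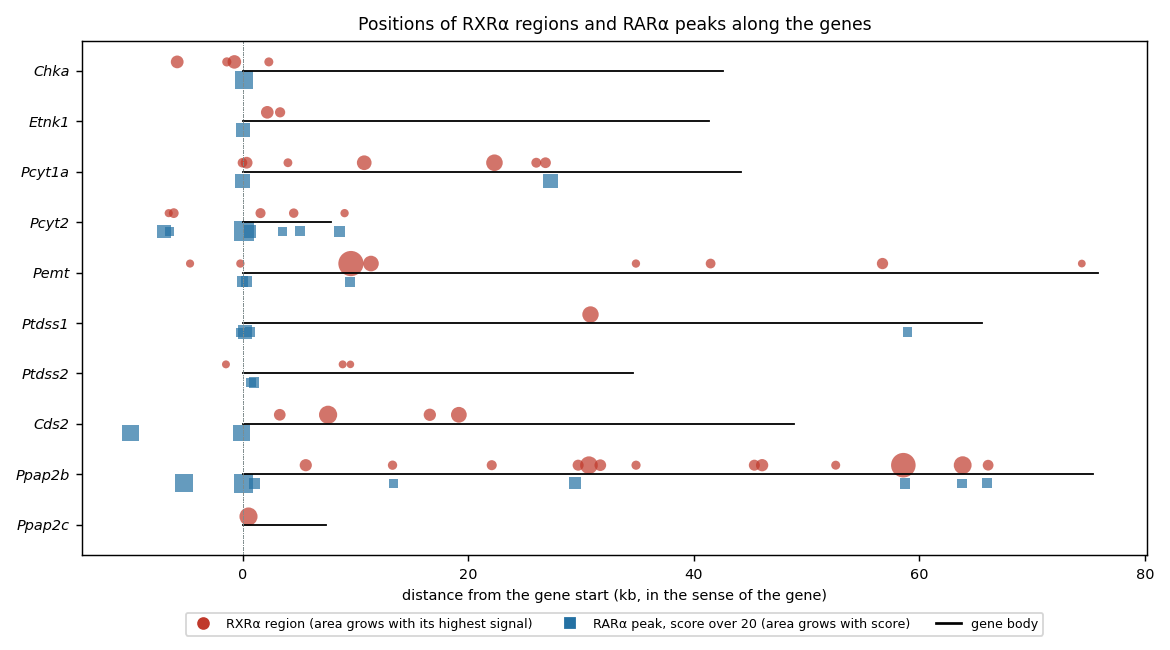
Positions of RXRα regions (red circles, area growing with the highest signal) and RARα peaks of score over 20 (blue squares, area growing with the score) along each gene in kb from its start, with the gene body as a line. The largest blue squares lie at or upstream of the starts and the largest red circles inside the gene bodies, with Ppap2b carrying 13 RXRα regions in its body and Ptdss1 a single one.

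Within 10 kb, RARα peaks lay closer to the starts of these genes than RXRα regions did. Of the 23 RARα peaks 14, or 60.9%, had their summit within 1 kb of the start, against 51.9% of such peaks over all genes. Both shares count abutting peaks separately, and peaks abut near the starts of Ptdss1, Ptdss2, Pemt and Pcyt2. Merging abutting peaks left 17, whose share within 1 kb was not computed. Of the 24 RXRα regions 5, or 20.8%, lay within 1 kb, against 30.6% over all genes. Both receptors also had sites beyond 10 kb inside the gene bodies, 7 RARα peaks and 24 RXRα regions. A total of 9 of the 10 genes still had a RARα peak when the distance was reduced to 1 kb (40.9% of all genes). An RXRα region remained within 1 kb of 4 genes, Pemt, Pcyt1a, Chka and Ppap2c (21.6% of all genes). The gene starts were rich in CpG, with a median ratio of observed to expected CpG of 0.806 over 1 kb centred on the start, against 0.549 for all genes. The 2 lowest ratios were those of Ptdss2, 0.407, and Ppap2c, 0.501, the genes with the lowest RARα scores near their starts. The part of base composition in the RARα peaks was not tested.

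The strongest RARα peaks were not the ones with the most RXRα. The 5 highest scores of the set, 128 and 118 at the starts of Pcyt2 and Ppap2b, 104 at Chka, 103 upstream of Ppap2b and 89 at Cds2, all lacked an overlapping RXRα region. Co-localized peaks had scores of 21 to 62. Of the 23 peaks within 10 kb, 4 were co-localized, or 17.4%, against 33.1% of the 18093 peaks within 10 kb of any gene. The peaks were otherwise much like those of other genes: the median score was 36 in both sets, the median distance to the nearest RXRα region was 1061 bp against 940 bp, and the median RXRα enrichment under the peak was 3.54 against 4.60. The lower share depended on abutting peaks being counted separately. With abutting peaks of any score merged first, 7 of 17 peaks were co-localized, that of Chka among them. The share of merged peaks over all genes was not computed. With few peaks, either share describes this set only.

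**Figure D4:**
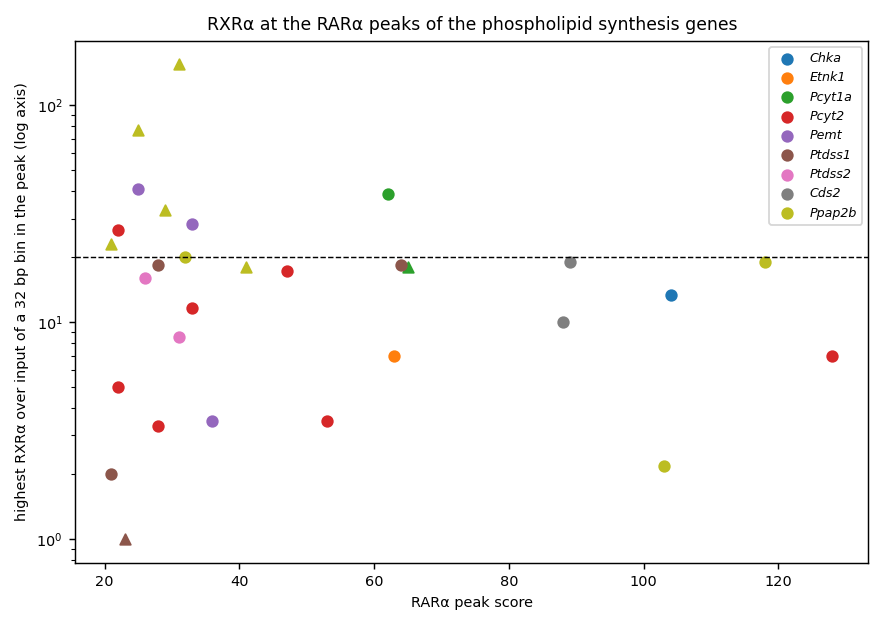
The highest RXRα over input of any 32 bp bin in a RARα peak (log axis) against the RARα score, for the 30 peaks near or in the genes, with circles for peaks within 10 kb of a start, triangles for peaks farther inside a gene and a dashed line at 20 times the input. Peaks above the line have scores of 62 or less, and several at the starts lie just under it, such as those of Ppap2b and Cds2 at 19.0.

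How many of the genes counted as co-localized therefore depended on the RXRα threshold. With bins of at least 15 times the input 7 of the 10 genes had a co-localized pair within 10 kb (30.2% of all genes), and with 10 times the input 8 had one (38.9%). At 5 times the input 9 genes had one (47.7%), and at 30 times the input 2, Pemt and Pcyt1a (14.9%). Cds2, Ptdss1, Ptdss2 and Ppap2b entered at 15 times the input, Chka at 10 and Etnk1 at 5. Ppap2c had none at any of these thresholds, since it had no RARα peak over the score threshold.

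For other genes of glycerophospholipid synthesis the count moved less with the threshold. A list of 32 such genes was compared, from the acyltransferases that make phosphatidic acid to the enzymes that remodel the acyl chains. Within 10 kb, 23 of them had a RARα peak (52.2% of all genes), 24 an RXRα region (39.8%) and 21 a co-localized pair (23.5%). A co-localized pair was found at 23 of them with 5 times the input (47.7% of all genes) and at 18 with 30 times (14.9%). Over their bodies 23 had a RARα peak (42.5% of all genes), 23 an RXRα region (33.9%) and 15 a co-localized pair (17.7%). The genes with a co-localized pair near the start were Gpam, Agpat1, Agpat2, Agpat3, Agpat5 and Agpat6 of the acyltransferase families that build phosphatidic acid. They also included Lpin1, Lpin3 and Ppap2a, which remove the phosphate of phosphatidic acid, and Chkb, Etnk2, Chpt1, Cept1 and Ept1 of the Kennedy pathway. Ptpmt1, Crls1 and Cdipt of the CDP-diacylglycerol branch, the phosphatidylserine decarboxylase Pisd, and Lpcat3, Lclat1 and Mboat7, which act on lysophospholipids, completed the group. The highest RXRα enrichment over 10 kb was at Agpat2 with 8.06 (6.77 to 9.68), followed by Etnk2 with 5.45 (4.69 to 6.36) and Agpat6 with 4.94 (4.15 to 5.88), each above the highest value of the 10 genes, 3.97 at Ppap2c. The intervals of Etnk2 and Agpat6 overlapped that of Ppap2c, 2.91 to 5.42, while that of Agpat2 did not. The median enrichment of the list was lower than that of the 10 genes over 10 kb, 1.58 against 2.60, and over the body, 1.45 against 2.44, but higher within 1 kb of the start, 4.83 against 3.97. In the list, 9 genes, among them Pcyt1b, Cds1 and Lpcat1, had no RARα peak within 10 kb, with an enrichment of 0.504 to 1.29.

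**Figure D5:**
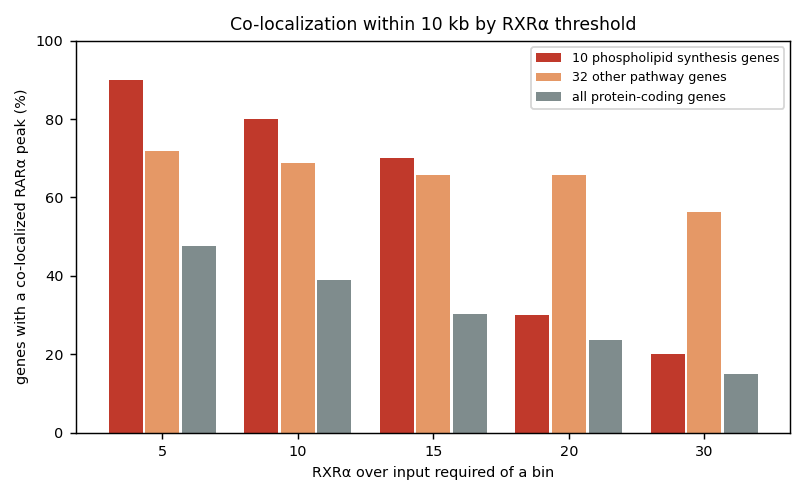
Share of genes with a co-localized RARα peak within 10 kb (%) against the RXRα over input required of a bin, for the 10 phospholipid synthesis genes, the 32 other pathway genes and all protein-coding genes. The share of the 10 genes drops from 90% at 5 times the input to 30% at 20 times, while that of the 32 genes goes from 71.9% to 65.6%.

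The sequences under the peaks held few direct repeats. Repeats of the 4 hexamers spelled out above, each copy in the same orientation, spaced by 1 to 5 bases, were searched on both strands of 201 bp windows at RARα summits and at the highest RXRα coverage. No exact repeat was found in the 30 RARα windows of the 10 genes. Of all 18093 RARα windows within 10 kb of a gene start, 0.508% had one. None was found in the 48 RXRα windows, against 2.92% of all 15094 within 10 kb of a gene start. The sets differ in place, since 7 RARα and 24 RXRα windows of the 10 genes lay more than 10 kb from the start. A search that allowed 1 mismatch, chosen after the exact search gave none, found a repeat in 3 of the 30 RARα windows (10%, against 6.81% of all) and in 12 of the 48 RXRα windows (25%, against 21.9% of all). Repeats spaced by 1 base, named DR1, were found in 7 of the 48 RXRα windows (14.6%, against 8.92% of all). With 3 to 12 matches these shares describe the windows only, and a match of letters does not show that a receptor binds there.

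Some matches lay in regions described above, and they are written here with the hexamers in capitals. They are shown because each falls at an RXRα region or RARα peak that the account of its gene turns on. All but that of Ppap2b lie on the minus strand of the genome.

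Etnk1, 3262 bp from the start, DR1: AGGTCAaAGGGCA

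Cds2, 7439 bp from the start, DR1: AGGTCAaAGATCA

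Pcyt1a, 22370 bp from the start, DR1: GGGTGAgGGGTCA

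Ppap2b, 58639 bp from the start, DR3: TGGTCAtcaGGGTCA

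Pcyt1a, 27310 bp from the start, DR4: TGGTCAgaagGGGTCA

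The first 3 lay at intronic RXRα regions with no RARα peak over the threshold. The repeat of Ppap2b, spaced by 3 bases, lay in its strongest co-localized pair and can be read near the end of the window printed above. That of Pcyt1a spaced by 4 bases lay 11 bp from the RARα summit of score 65. Single hexamers were frequent: 8 of the 10 windows of 151 bp at the strongest RXRα region of each gene held at least 1, those of Chka and Etnk1 being the exceptions, and 56.1% of the windows at all RXRα regions near genes did.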

How the data were processed

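The authors prepared 1 RXRα, 1 input and 1 RARα library. The submitters' processing notes name CASAVA 1.4, Bowtie and, for RARα, MACS. The methods name mm10 for alignment and NCBI37/mm9 for annotation, and the file headers name mm9, so NCBI37/mm9 was used for genes and sequence. The authors deposited RXRα and input as a signal, the number of extended reads over each 32 bp bin, 5 bins per read. This corresponds to 9999939 and 9999292 reads, which may reflect a common depth set by the authors. The deposited RARα peaks carry a score, whose formula is not given in the sources used here, and a false discovery rate in percent (at most 4.75), which was not used as a filter.

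The values of a score over 20, 10 kb, 20 times the input and 25% overlap were taken from the study. Calling RXRα regions from the bins, in place of the peak caller the study used, and referring the overlap to the narrower interval were choices made here. RARα peaks were placed by their summit and RXRα regions by their midpoint. Bins were joined within 200 bp, and tracks were scaled to the same mean, which leaves an exact ratio of 20 just under the threshold. Percentiles are shares of all 22367 genes. The steps were checked on simulated data. The analysis ran in Python 3.11.15 (pysam 0.24.0 for sequence, scipy 1.17.1 for intervals, pandas 2.3.3 and numpy 2.4.6 for tables, matplotlib 3.10.9 for plots).

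The genes, the list of 32 pathway genes and the settings were chosen with earlier results of these data known. Named were the 10 genes with their strongest peaks and regions, genes starting within 10 kb of them, and, of the pathway list, those with a co-localized pair, the 3 most enriched, and examples without a peak. The match by gene length, the search with 1 mismatch and the comparison of base composition were added after values had been seen. Other receptors and measurements of the study were not analysed here.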

Additional observations from a re-analysis of the deposited data

How the results depend on the processing

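Of 79 values recomputed under other settings 51 stayed close to those given and 28 moved. These values are counts and medians, which have no direction of their own. Without a score threshold, co-localized genes numbered 7 within 10 kb (31.2% of all genes) and 8 in the body (26.3%), RARα peaks 71 and co-localized peaks 11. With a score over 50 these were 1 (10.9%), 0 (6.9%), 10 and 1, and 6 of the 32 pathway genes were co-localized. With 5, 10 and 15 times the input, co-localized genes numbered 9, 8 and 7 within 10 kb and 8, 7 and 6 in the body (36.9, 29.1 and 22.5% of all genes), and co-localized peaks 16, 12 and 11, while 30 times the input left 2 such peaks. With the genome mean alone as input there were 7 co-localized genes (36.2%) and 12 peaks. Merging abutting RARα peaks gave 7 co-localized peaks out of 17, and 4 genes co-localized in the body (18.7%). At 5 kb there were 2 co-localized peaks, and at 1 kb 14 RARα peaks, 2 co-localized, 4 genes with an RXRα region (21.6%) and a median enrichment of 3.97. At the depth of these tracks, a bin with 0 input reads took its ratio from the genome mean alone. No paired analysis was possible because each group had 1 library, and for the same reason no library could be left out.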
